A study of Homo sapiens with 3 samples.

Results

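Cytosolic ribosomal proteins are the protein components of the cytosolic ribosome. The genes described here are the rows of the count table whose symbols follow the RPL, RPS, RPLP or RPSA naming pattern, a rule that uses no measured value. They number 85 of 27574 genes. Of these, 77 are canonical members, 46 in the large subunit, with its P stalk, and 31 in the small subunit. The other 8 are paralogs, which are second genes related to a canonical one. Read counts came from 3 libraries of total RNA from H82R cells, called replicates 1, 2 and 3. H82 is a long-established line of human small cell lung cancer, and every library is labelled as treated with etoposide plus cisplatin, drugs that damage DNA. All libraries form 1 group, and no parental or untreated cells are among the samples, so levels and their spread can be given but no effect of the drugs. The labels do not say whether each library had its own culture, so p-values measure only the spread between these libraries, which may be technical.

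The ribosome joins a small subunit, which decodes the messenger RNA, to a large subunit, which forms the peptide bond. Its proteins are needed in near equal amounts, and many of their messenger RNAs begin with a C followed by a run of pyrimidines, the 5′ terminal oligopyrimidine (TOP) start through which the mTOR kinase and the RNA-binding protein LARP1 control translation. Free RPL5 and RPL11 can bind MDM2 and so link faulty ribosome assembly to p53. Mutations in RPS19, RPL5, RPL11 and several other members cause Diamond-Blackfan anaemia.

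Replicates 1, 2 and 3 held 25013265, 42610181 and 23868201 counts. Genes that reached 10 counts in each library are called detected, and 14612 were. Levels are given as CPM, the counts scaled to equal library size, or, between genes, as CPM per kb of the gene's principal transcript. Neuroendocrine markers summed to 1428, 1424 and 1453 CPM in replicates 1, 2 and 3, with all 9 detected. Of the markers of other cells, 3 of 6 immune, 2 of 5 fibroblast and 2 of 4 endothelial genes were detected, with sums from 30.8 to 40.6, from 3.25 to 5.52 and from 1.09 to 1.79 CPM. The immune sum was mostly CD68, which has 97.6% of its coding bases in common with another gene, while PTPRC had 6, 10 and 7 counts.

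The start of the transcript was read first, because it is the sequence feature that defines this gene family's translational control. RefSeq start windows (GRCh38.p14) were found for 68 members. At 47 of these (69.1%) at least 1 annotated start was a C followed by 4 or more bases that are each C or T, against 5.14% of the 27305 genes with a window. The share was 74.2% (46 of 62) for canonical members and 1 of 6 for paralogs. Among mitochondrial ribosomal protein genes it was 6 of 68. The following windows run 5′ to 3′ from 10 bases before the annotated start to 20 bases into the transcript, and capitals mark the C and pyrimidine run that begins at the first transcribed base. They show abundant members with and without the run, members with few counts, and paralogs beside their canonical partners.
RPLP0 (chr12:120201092-120201121, minus strand): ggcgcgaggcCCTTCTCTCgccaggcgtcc
RPS15 (chr19:1438386-1438415, plus strand): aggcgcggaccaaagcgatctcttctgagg
RPS10 (chr6:34426050-34426079, minus strand): catgctccttCCTTTCCagccccggtaccg
RPS23 (chr5:82278335-82278364, minus strand): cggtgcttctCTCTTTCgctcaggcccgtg
RPL22L1 (chr3:170870176-170870205, minus strand): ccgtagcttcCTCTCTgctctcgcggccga
RPL22 (chr1:6199576-6199605, minus strand): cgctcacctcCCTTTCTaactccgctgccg
RPL36AL (chr14:49620607-49620636, minus strand): tcttccctttcctgttaggcgagagctgcg
RPL36A (chrX:101391001-101391030, plus strand): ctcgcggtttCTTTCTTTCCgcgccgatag
RPS27L (chr15:63157458-63157487, minus strand): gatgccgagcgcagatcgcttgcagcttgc
RPS27 (chr1:153990752-153990781, plus strand): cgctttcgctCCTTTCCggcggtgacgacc
RPS15 was among the most abundant members, and its annotated start does not open with the run. A C followed by 4 or more bases that are each C or T lies further into its printed transcript. The lack of a run at the start of RPS15 therefore rests on where that start is placed. The annotated starts of RPL36AL and RPS27L do not open with such a run, whereas those of their partners do, and RPL22L1 opens with a run of 6 bases. In RPL36AL the 10 bases before the annotated start are all C or T, so the lack of a run there rests on where that start is placed. The RPS27L window has no such stretch. RPS10 and RPS23, which had few counts, carry the run as RPLP0 does. These are annotated starts, not starts measured in H82R cells.

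Other motifs were searched on both strands of the whole windows, from 250 bases before to 50 after the start. The ETS core CCGGAAG, bound by factors such as GABPA, occurred in 24 of 68 members (35.3%), against 12.2% of all genes, and in 29 of 68 mitochondrial ribosomal protein genes (42.6%). The YY1 core AANATGGCG, where N is any base, occurred in 9 members (13.2%) and 3.85% of all genes, and in 18 of 68 mitochondrial ribosomal protein genes (26.5%). TATAAA occurred in 7 members (10.3%) and 14.0% of all genes. Each motif was searched on its own, so matches may overlap, and a match is a description of the letters only.

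Most ribosomal protein genes stood far above the typical gene of H82R cells. Together they held 5.76%, 6.24% and 5.06% of all counts in replicates 1, 2 and 3 (95% exact Clopper-Pearson intervals 5.75 to 5.77, 6.23 to 6.24 and 5.05 to 5.06, for counting error only), a mean of 5.68% ± 0.594 (SD, n = 3). Of the 85 members, 83 were detected, and 79 of the 83 lay above the median detected gene (limma's one-sample moderated test of log2 CPM per kb, Benjamini-Hochberg adjusted over all genes tested), where 45.5% of the genes tested were called above it. The other 4, RPL17, RPS10, RPS27L and RPL3L, lay below it, a call made for 45.4% of genes. RPL3L stood at -3.55 ± 0.20, RPS27L at -1.42 ± 0.09, RPS10 at -0.95 ± 0.16 and RPL17 at -0.83 ± 0.17, in log2 CPM per kb ± SE relative to the median gene. The median detected member stood 6.40 above the median gene on the log2 scale of CPM per kb, and the median over all genes tested was -0.01. That distance was 4.53 with no length, 4.99 on union exon length, 5.08 against the upper quartile of genes and 7.37 where genes with any count were kept. The least firm calls above it were those of RPL39L (0.47 ± 0.15, adjusted p = 0.0203 in limma) and RPS23 (0.23 ± 0.08, adjusted p = 0.0269 in limma), in log2 CPM per kb ± SE. Without replicate 1 or 2 RPL39L no longer passed (limma, adjusted p = 0.0639 and 0.0722), nor did RPS23 without replicate 2 (limma, adjusted p = 0.0838). With a filter of at least 1 CPM in every library both calls were lost, at 0.26 for RPL39L (limma, adjusted p = 0.138) and 0.029 for RPS23 (limma, adjusted p = 0.751). RPL10L had no count in any library, and a limit of 3 counts per library puts it at no more than 0.121, 0.0702 and 0.125 CPM in replicates 1, 2 and 3.

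Large-subunit and stalk genes held 3.76%, 4.06% and 3.27% of counts, and small-subunit genes 1.95%, 2.12% and 1.73%. The paralogs held 0.0539%, 0.0557% and 0.0569%. The ratio of large to small was 1.93, 1.92 and 1.89 in replicates 1, 2 and 3, so it moved far less than either share. Per kb of principal transcript the median canonical gene stood at 842 CPM in the large subunit with stalk and at 908 CPM in the small subunit, with interquartile ranges of 577 to 1248 and 616 to 1137, which overlap.

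The highest member per kb of principal transcript was RPS2, a small-subunit protein near the messenger RNA entry site, with 2839, 3044 and 2404 CPM per kb in replicates 1, 2 and 3 (2763 ± 327, SD, n = 3). It lies on chromosome 16 from 1962052 to 1964860 and stood 8.18 ± 0.10 (SE) above the median gene in log2 CPM per kb (limma, adjusted p = 6.1e-10). RPLP0, the base of the P stalk that recruits translation factors, followed at 2454 ± 206 CPM per kb (chromosome 12, 120196686 to 120201235). RPS2 was above RPLP0 in each library (RPLP0 had 2432, 2670 and 2260 CPM per kb), but RPLP0 was above RPS2 per kb of median transcript length (3531 and 3312 CPM) and per kb of coding sequence (3143 and 3096 CPM). Their order therefore turns on the length used. RPS15, which sits at the decoding side of the small subunit, averaged 1803 ± 216 CPM per kb. RPL6, RPL5, RPL19, RPL13A and RPL8, all of the large subunit, averaged 1785, 1767, 1723, 1668 and 1613 CPM per kb. Their SDs ran from 122 to 264, more than the steps between them. These SDs take in a shift that most canonical genes shared between libraries, so they do not measure how firm the order is. RPL6 was above RPL8 in each library (1862, 1900 and 1592 against 1689, 1752 and 1397 CPM per kb in replicates 1, 2 and 3). RPL5 was above RPL6 in replicate 2 only (1940 and 1900 CPM per kb). The partners of RPLP0 in the stalk, RPLP1 and RPLP2, stood at 736 ± 69.1 and 963 ± 103 CPM per kb of principal transcript, but at 1980 and 963 CPM per kb of median transcript length.

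The levels of many members rest on the length chosen. Of the 83 detected members, 10 stood over 2-fold higher per kb of the median length of protein-coding transcripts than per kb of principal transcript, and 20 did so per kb of coding sequence. RPL37 stood at 38.1 CPM per kb of its annotated principal transcript of 7686 bases, but at 459.5 CPM per kb of the median length of its protein-coding transcripts (637 bases). RPL41, which encodes a peptide of very few residues, stood at 564 CPM per kb of transcript and, at 3530, highest of all members per kb of coding sequence.

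**Figure D1:**
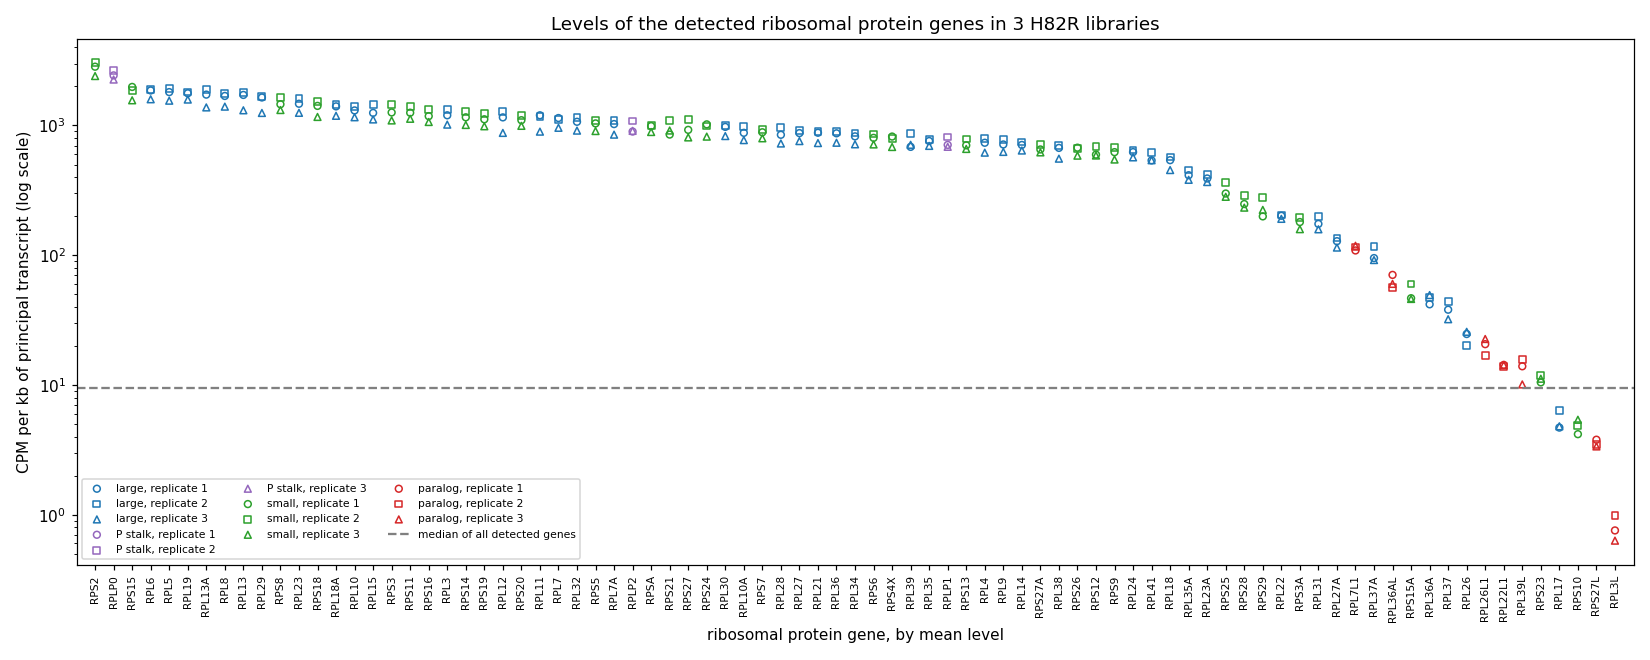
Level of each of the 83 detected ribosomal protein genes in 3 H82R libraries, in CPM per kb of principal transcript on a log scale, 1 symbol per library, coloured by large subunit, P stalk, small subunit or paralog. The dashed line is the median of all detected genes; most members lie far above it, and RPL17, RPS10, RPS27L and RPL3L lie below it.

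A tail of canonical members stood far below the rest. Per kb of coding sequence, 67 canonical genes ran from 698 to 3530 CPM with a median of 1471, and 9 other detected ones from 5.71 to 412. These 9, singled out after their values were seen, were RPS10, RPL17, RPL26, RPL36A, RPS15A, RPS23, RPS3A, RPL31 and RPS29. RPS10, a small-subunit protein modified by ubiquitin on collided ribosomes, had 61, 122 and 76 counts (chromosome 6, 34417454 to 34426125). RPL17, a protein of the peptide exit tunnel, had 78, 183 and 77 counts (chromosome 18, 49488453 to 49492523). RPS23, a decoding-centre protein, had 894, 1737 and 920 counts.

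Most of these 9 genes overlap other annotated genes. In GENCODE 29, 11 detected canonical members share over 20% of their coding bases with an exon of another gene on either strand, and 7 of these 11 were among the 9 lowest. Of the other 67 members 4 did so, and 9.29% of detected protein-coding genes. RPL17 shared 98.2% with RPL17-C18orf32, RPL36A 67.3% with RPL36A-HNRNPH2 and RPS10 56.9% with RPS10-NUDT3, transcripts that read through into the next gene. These 3 read-through genes have rows of their own, with no count in any library. RPL26 shared 60.7% and RPS15A 36.9% with genes on the same strand. RPS23 shared 57.1% with ATG10 and RPS3A 26.3% with SH3D19, both on the opposite strand; ATG10 had 398, 735 and 366 counts and SH3D19 had 2388, 4014 and 2110. RPL31 and RPS29 shared none, and they were the highest of the 9, at 389 and 412 CPM per coding kb. Overlap did not always go with a low level: RPL22 (59.4%, same strand), RPL30 (51.4%, opposite strand), RPL10 and RPL23A stood at 1075, 1474, 2574 and 1310 CPM per coding kb. The sources used here do not give the counting rule or its annotation, and the part of shared reads in these levels was not tested.

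**Figure D2:**
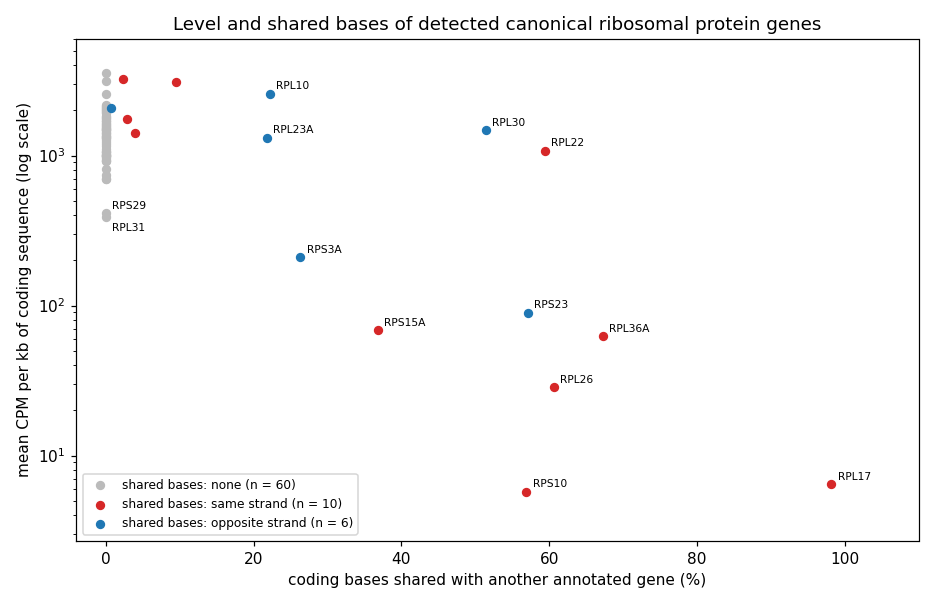
Mean CPM per kb of coding sequence (log scale) of the 76 detected canonical ribosomal protein genes against the percentage of their coding bases shared with an exon of another gene in GENCODE 29, coloured by the strand of the larger overlap. RPL17, RPS10, RPL26, RPL36A, RPS15A, RPS23 and RPS3A combine shared bases with levels of 210 or less, whereas RPL10, RPL23A, RPL30 and RPL22 stay above 1000.

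The paralogs were mostly minor beside their partners. RPL22L1, which cells can use in place of RPL22, had 777, 1298 and 747 counts in replicates 1, 2 and 3, against 10395, 18118 and 9496 counts of RPL22. Its count ratio to RPL22 was 0.0747, 0.0716 and 0.0787 (95% exact binomial intervals 0.0694 to 0.0804, 0.0677 to 0.0758 and 0.0729 to 0.0848), and the mean ratio per kb of principal transcript was 0.0712. RPL22L1 and RPL22 had the smallest SDs of log2 CPM of all members, 0.02 and 0.05. RPL39L, known from testis and some tumours, had 226, 436 and 158 counts, against 6815, 14840 and 6821 of RPL39, with count ratios of 0.0332, 0.0294 and 0.0232 and a mean ratio per kb of 0.0175. RPS27L, a p53 target, had 605, 958 and 518 counts, against 8251, 16990 and 6961 of RPS27, with a mean count ratio of 0.0680 ± 0.0101 (SD, n = 3). The position of RPS27L below the median gene turns to 1.02 above it, in log2 CPM per kb, with the median length of protein-coding transcripts, which is 808 bases, against 6434 for its principal transcript.

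Muscle and germ line paralogs were barely present. RPL3L, the striated muscle form of RPL3, had 41, 92 and 33 counts, against 42924, 82005 and 35086 of RPL3, a mean count ratio of 0.00101 ± 1.0e-04 (SD, n = 3). RPL10L, a testis retrogene, had 0 counts in each library, against 41658, 76683 and 35603 of RPL10, so its counts were at least 13886-, 25561- and 11868-fold lower (a floor of 3 counts per library).

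In the other pairs the paralog's counts were higher than, or nearer to, those of its partner. RPL36AL, a retrogene of RPL36A, had 1307, 1799 and 1075 counts, against 446, 866 and 507 of RPL36A, with count ratios of 2.93, 2.08 and 2.12. Per kb of principal transcript the mean ratio of RPL36AL to RPL36A was 1.37. RPL26L1 had 348, 493 and 368 counts, against 324, 454 and 325 of RPL26, and the intervals of all 3 ratios included 1 (0.921 to 1.25, 0.954 to 1.24 and 0.973 to 1.32). The mean ratio of RPL26L1 to RPL26 was 0.853 per kb of principal transcript and 1.10 per kb of coding sequence, so which of the pair was higher turns on the length used. RPL36A and RPL26 are 2 of the 9 low canonical members that share coding bases with other genes, and these ratios rest on their counts. Near-identical sequence in such pairs also leaves the division of reads between them uncertain. RPL7L1, a nucleolar factor in large-subunit assembly, had 10187, 18654 and 10683 counts, which were 0.326, 0.355 and 0.422 times those of RPL7, and its mean ratio per kb of principal transcript was 0.107. The ratios are descriptions, with no test across libraries.

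**Figure D3:**
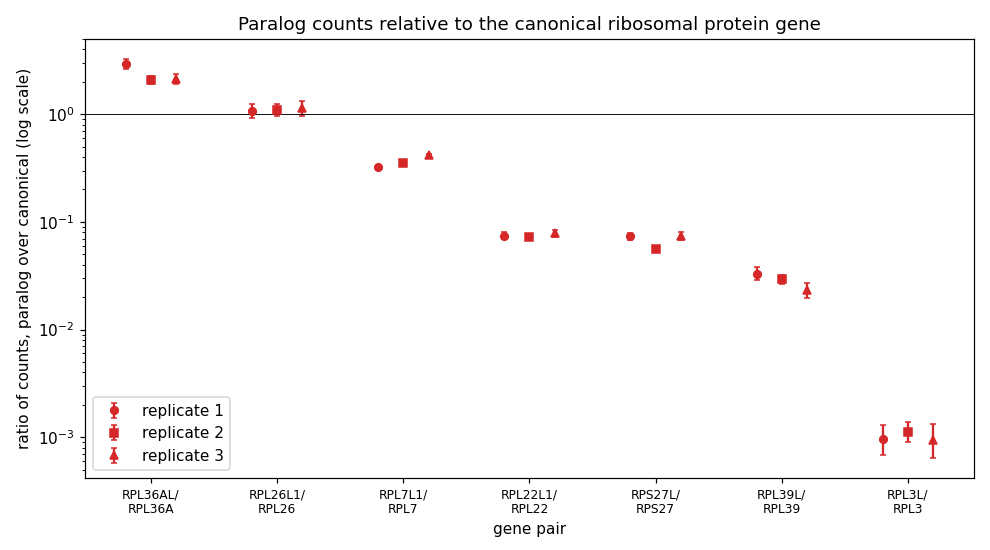
Ratio of paralog counts to counts of the canonical gene in each of 3 H82R libraries, on a log scale with exact binomial 95% intervals; the line marks equal counts. RPL36AL lies above it, RPL26L1 on it and the other 5 pairs below it, with RPL3L near 0.001.

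The canonical genes moved together between libraries. Of the 83 detected members, 69 (83.1%) were highest in replicate 2 and 69 (83.1%) lowest in replicate 3, against 36.4% and 33.3% of all detected genes. Among the 76 canonical ones, the median difference in log2 CPM was 0.29 between replicates 2 and 3, with an interquartile range of 0.24 to 0.34, and 73 of 76 differences were positive. Over detected genes other than members the median was 0.00, with an interquartile range of -0.21 to 0.22. Between replicates 2 and 1 the canonical median was 0.11, with 69 of 76 positive, and between replicates 1 and 3 it was 0.18. The libraries carry no label that sets them apart, and single neuroendocrine markers moved as far, in both directions: the difference in log2 CPM between replicates 2 and 3 was -0.44 for CHGB, -0.33 for CHGA and 0.33 for ENO2.

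Single members differed in how far and in which order they moved. RPL12, a stalk-base protein, showed the widest change of the canonical genes with 731, 813 and 555 CPM in replicates 1, 2 and 3. RPL13 (1225, 1278 and 932 CPM) followed the same order. RPS15, RPL11, RPL7, RPS24, RPS4X and RPS26 were highest in replicate 1, though all 6 were lowest in replicate 3. The canonical genes highest in replicate 3 were RPL36A, RPL26 and RPS10, all from the low tail; RPL26 read 13.0, 10.6 and 13.6 CPM. RPL17 and RPS29, also of the tail, were highest in replicate 2, at 4.28 and 82.4 CPM. The 7 detected paralogs were divided, 3 highest in replicate 1, 2 in replicate 2 and 2 in replicate 3, and RPL7L1 was lowest in replicate 1, with 410, 437 and 446 CPM. RPL39L and RPL3L had the largest SDs of log2 CPM of all members, 0.32 and 0.31, on at most 436 counts.

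In a chi-square test of homogeneity of the counts against library size, 79 of 83 members differed between libraries beyond counting error (Benjamini-Hochberg adjusted), against 68.7% of the detected genes. Abundance sets how often this test calls a gene, and 788 of 823 other genes of at least 200 CPM were called as well. RPL22L1, RPS10, RPS27L and RPL3L did not pass (adjusted p = 0.792, 0.380, 0.145 and 0.0840). The median SD of log2 CPM was 0.16 over the detected members, 0.17 over all detected genes and 0.11 over the other genes of at least 200 CPM.

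**Figure D4:**
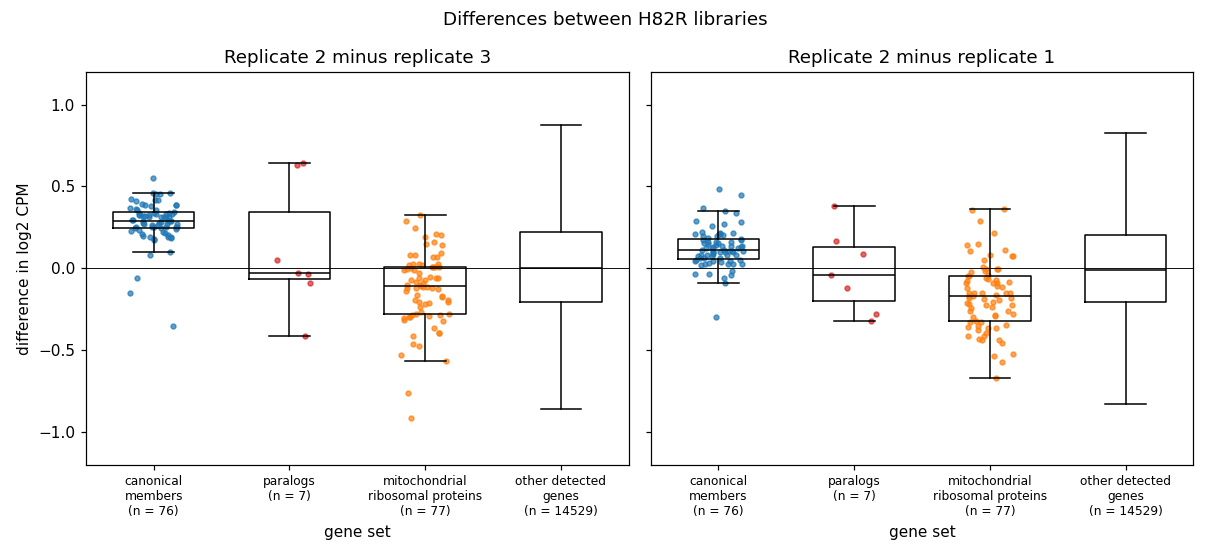
Difference in log2 CPM between replicates 2 and 3 (left) and replicates 2 and 1 (right) for canonical ribosomal protein genes, their paralogs, mitochondrial ribosomal protein genes and all other detected genes; boxes give the median and interquartile range, whiskers the values within the usual boxplot limits, and points are single genes for the first 3 sets. Canonical members lie mostly above 0 in both panels, with medians of 0.29 and 0.11.

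Mitochondrial ribosomal protein genes had another order. The 77 mitochondrial ribosomal protein genes held 0.399%, 0.363% and 0.388% of counts, were highest in replicate 1 in 48 cases and lowest in replicate 2 in 47. Coding genes of under 1000 bases other than members, 860 in number, had a median difference of 0.02 in log2 CPM between replicates 2 and 3, and the 823 genes of at least 200 CPM had -0.02. Both medians were nearer 0 than that of the canonical ribosomal protein genes. TOP messenger RNAs of other genes had a median of 0.18 between replicates 2 and 3, and 16 of 19 were lowest in replicate 3. Between replicates 2 and 1 their median was 0.01, with 10 of 19 positive, and 10 of 19 were highest in replicate 2, against 67 of 76 canonical ribosomal protein genes.

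Those TOP genes were mostly high. Of 20, 19 were detected, and each of the 19 stood above the median gene in the same limma test, led by the elongation factors EEF1A1 (7218 ± 709 CPM per kb) and EEF2 (1933 ± 289) and the nucleolar chaperone NPM1 (1121 ± 31.2), with EEF1D lowest (87.1 ± 5.60). EEF1G was listed at 0 counts in every library, and every coding base of it lies in another annotated gene too. Ribosomal proteins with other names were also above the median gene. RACK1, the signalling scaffold of the small subunit, stood at 979 ± 104 CPM per kb. FAU, the precursor of small-subunit protein S30, was lower, at 65.1 ± 1.08 CPM per kb.

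Genes that serve ribosomal proteins stood nearer the median gene, with list medians of 1.11 to 2.03 in log2 CPM per kb above it, against 6.40 for the detected members. Among 14 chaperones and modifying enzymes of new ribosomal proteins, 11 lay above it and PDCD2L and NAA10 below; RIOX1 (57.2 ± 6.41 CPM per kb), BCCIP (56.4 ± 11.9) and LYAR (41.1 ± 6.05) were highest and PDCD2L (4.56 ± 0.339) lowest. Of 16 regulators of TOP translation, 14 lay above. CNBP (277 ± 14.3), EIF4G1 (219 ± 15.5) and EIF4EBP1, an inhibitor of the cap-binding protein (197 ± 32.6), were highest. EIF4E, the cap-binding protein, lay below (6.49 ± 0.961), on a principal transcript of 11523 bases. Its level rests on that length: per kb of the median length of its protein-coding transcripts (1097 bases) EIF4E stood at 68.2 CPM. The call was not tested on that length. Among 10 candidate factors for these promoters, 8 lay above and GABPB1 below (6.39 ± 1.09). The level of GABPB1 likewise rests on a long principal transcript (4816 bases), and per kb of median transcript length (1406.5 bases) it was 21.9 CPM. MAZ (170 ± 9.75), HCFC1 (60.1 ± 7.92) and SP1 (56.4 ± 2.14) were highest, and TBPL2 was not detected. In ribosome quality control 7 of 9 lay above, with HUWE1 (68.2 ± 3.41), ZNF598, the ligase that marks collided ribosomes (52.4 ± 4.80), and USP9X (43.2 ± 3.43) highest and PELO (4.28 ± 0.335) lowest. In the nucleolar 5S particle list 5 of 6 lay above, with GLTSCR2 (197 ± 30.4), BOP1 (112 ± 10.5) and MDM2 (43.4 ± 4.81) highest and HEATR3 (10.6 ± 0.275) lowest. All of these lists compare with 45.5% of genes called above and 45.4% below, and the means are CPM per kb ± SD over 3 libraries.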

How the data were processed

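The authors deposited raw read counts per gene symbol, 1 column per library, with no normalization. The submitters' processing notes name STAR 2.6.1b and hg38 without saying what each was used for; the counter, annotation, strand setting and filters are not stated in those notes, the labels or the file. Of 27587 names, 13 had become dates (0.0665% to 0.0736% of counts) and were left out. Columns were matched to libraries by title.

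CPM used TMM sizes (edgeR 4.0.16; factors 0.993, 1.00 and 1.00). Whether a level differs from that of the median gene was tested by limma-trend, with R 4.3.3 and limma 3.58.1 (prior count 2, adjusted p threshold 0.05) on 13517 detected genes with a length. Length was that of the principal transcript in GENCODE 29 (GRCh38), the longest transcript where none is marked, and the shortest principal one where several are, a choice made after seeing the lengths. With 1 group there was no contrast for edgeR's or DESeq2's tests. The tests were also run on counts simulated from the measured means and library sizes. The spread between simulated libraries was set in advance, so that run does not show how the tests perform on these libraries. Counts do not separate molecules, so intervals cover counting error only.

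The naming rule uses no values, but the choice of this gene family, and of the lists, was made with earlier results of these data known. Named genes are all pair members, the 8 highest and lowest members per kb, undetected members, the 5 largest and 3 smallest SDs, members with over 50% shared bases or, in the closing section, the most pseudogenes, and the 3 highest and the lowest of each list. Some genes that this rule names are not reported here.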

Additional observations from a re-analysis of the deposited data

How the results depend on the processing

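Leaving out each library in turn, the members above the median gene numbered 77 to 79, those below it 4, those with spread beyond counting error 69 to 75 and the members' share of counts 5.41% to 6.0%. Under DESeq2 1.42.0 size factors and plain totals the counts of 79 above, 4 below and 69 highest in replicate 2 did not move. Members below the median gene numbered 2 with any gene of at least 1 count kept, and 7 with no length and against the upper quartile. Of 83 members, 73 kept direction and call under all 15 alternatives run for single genes; 10 changed direction under at least 1, and the cause is the changed reference point, filter or length. With any count kept, RPL17 stood at 0.14 and RPS10 at 0.016, and neither passed (limma, adjusted p = 0.460 and 0.936). On union exon length, RPL26 stood at -0.17, RPL36A at -0.15 and RPS15A at -0.48. Of these, RPL26 and RPL36A did not pass (limma, adjusted p = 0.198 and 0.176). With no length, RPL26 stood at -1.02, RPL26L1 at -0.89, RPL36A at -0.34 and RPL39L at -1.55, and the calls of RPS15A and RPS27L were lost (limma, adjusted p = 0.493 and 0.182). Against the upper quartile, RPL22L1 stood at -0.74, RPL26 at -0.012, RPL26L1 at -0.24, RPL39L at -0.85 and RPS23 at -1.09. There RPL26 and RPL26L1 did not pass (limma, adjusted p = 0.926 and 0.0824). On median transcript length, chosen like coding length after seeing the data, RPL39L stood at -0.29 and did not pass (limma, adjusted p = 0.101). RPS27L stood at 1.02 on median transcript length and at 2.19 on coding length.

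Log2 ratios per kb of a paralog to its partner moved with length, from -3.81, -5.85, 0.43, -0.23, -3.23, -10.56 and -8.05 on principal length for RPL22L1, RPL39L, RPL36AL, RPL26L1, RPL7L1, RPL3L and RPS27L. On union exon length they were -2.73, -4.13, 3.64, 1.24, -2.88, -9.17 and -7.03 in the same order, with no length -3.74, -5.15, 1.23, 0.13, -1.45, -9.96 and -3.89, and on coding length -3.67, -5.15, 1.23, 0.13, -1.49, -9.98 and -3.89. Only RPL26L1 changed sign among them. No paired analysis was possible because the labels form 1 group. Adding pseudogene rows was not run, as no row carries such a name, and RPL10L had no ratio. Depth limits statements on RPL10L and RPL3L.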

Other observations

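Ribosomal protein genes have many processed copies in the genome. GENCODE 29 annotates 1144 pseudogenes named after 77 of the 85 members, and none of them has a row in the count table. RPL23A (91 pseudogenes), RPSA (74), RPL21 (66), RPL7 (61) and RPL12 (50) have the most, and these 5 stood at 1310, 1273, 1073, 1586 and 1413 CPM per kb of coding sequence, near the canonical median of 1373. Across the 76 detected canonical genes, which share libraries and are not independent, the number of pseudogenes and log2 CPM per coding kb gave Pearson's r = -0.12 and Spearman's rho = -0.23. Coding length and log2 CPM gave r = 0.44 and rho = 0.71 across the same genes.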
